A study of Mus musculus with 6 samples.

Results

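Glucose enters a cell through membrane transporters, is split into pyruvate by the enzymes of glycolysis, and leaves either as lactate or through the pyruvate dehydrogenase complex into the mitochondrion. The pentose phosphate pathway branches off after hexokinase and makes NADPH and the ribose of nucleotides. Mouse embryonic stem cells in the naive state are known for high rates of both glycolysis and respiration. The genes described here are those of the 5 steps of this route: glucose uptake, glycolysis, lactate handling, pyruvate entry and the pentose phosphate pathway. They were given as 34 gene symbols, and each was read from the probe set that carried that symbol alone and had the highest mean over all arrays. Of the 34 genes, 31 were read in this way among 18194 genes on the array, and Gpi1, Eno1 and G6pdx were not analysed here.

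The cells were E14Tg2a, a mouse embryonic stem cell line, and total RNA was taken 96 h into the experiment and hybridised to Affymetrix arrays. There were 3 groups of 2 arrays each. The control cells received an siRNA duplex against firefly luciferase, a gene that mouse cells do not have, and the other groups received Ncl siRNA #1 or Ncl siRNA #2, different commercial siRNAs against Ncl. Nucleolin, the product of Ncl, is an abundant nucleolar protein needed for ribosome production. All arrays come from this single cell line, and an siRNA lowers a transcript without removing the gene. The labels do not tell whether replicates came from separate cultures, and each p-value therefore reflects array-to-array spread alone, which may be technical. For each gene that spread is drawn largely from other genes, with 3 residual and 17.5 prior degrees of freedom. All values are log2 signals as deposited, a difference of 1 being a doubling. Differences of genes are given with their standard error (SE) and adjusted p from limma, Benjamini-Hochberg over all 18194 genes. For the dimmer probe sets of Aldoa, Pdha1, Tkt and Ldhb, and for counts of called probe sets, limma was fitted over all 45101 probe sets.

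The targeted gene was lower in every Ncl siRNA array. Ncl read 14.21 in both control arrays and, by array, 13.77 and 13.74 under siRNA #1 and 13.77 and 13.72 under siRNA #2. On average this is 72.9% and 72.5% of the control signal on its brightest probe set. These signals lie near the top of the measured range, which ends at 15.34, and saturation was not tested. The stem cell marker Pou5f1 read 13.56 and 13.61, then 13.32 and 13.16, then 13.00 and 13.03, in the same order of groups. Both control arrays also carried transcripts of other tissues. For the marker counts that follow, 21.7% of all genes were lower and 20.3% higher in the mean of both Ncl siRNAs minus control. Of 8 airway secretory cell markers 7 were lower in the mean of both Ncl siRNAs, and their summed signal, on the log2 scale, lay between 13.19 and 13.22 under the control siRNA against 7.60 to 8.04 under the Ncl siRNAs. Their defining gene Scgb1a1 read 12.96 in both control arrays and 3.29 to 4.01 in the others. Of 7 alveolar type 2 cell markers 5 were lower and 1 higher, with sums from 11.44 to 11.61 against 9.40 to 9.67. Of 10 heart muscle markers 8 were lower, with sums from 9.67 to 9.91 against 8.72 to 8.86, and of 10 skeletal muscle markers 3 were lower and 3 higher, with sums from 11.29 to 11.32 against 10.61 to 10.71. Of 8 neuronal markers 3 were higher and 3 lower, with overlapping sums, from 12.75 to 12.85 against 12.67 to 12.96, and of 10 leukocyte markers 2 were higher and 3 lower, with sums from 11.51 to 11.59 against 11.46 to 11.55. The furthest moved markers of each list, in the mean of both siRNAs, were Scgb1a1 (-9.27) and Bpifa1 (-4.98) for airway, Sftpc (-5.76) and Sftpa1 (-2.67) for alveolar, Myl7 (-2.17) and Tnnt2 (-1.47) for heart, Acta1 (1.54) and Actn3 (-1.04) for skeletal muscle, Lyz2 (-3.52) and Cd74 (-0.83) for leukocytes, Nefm (2.47) and Syt1 (0.86) for neurons, Hbb-b2 (-0.74) and Alas2 (-0.51) for red blood cells, and Esrrb (-0.84) and Klf4 (-0.61) for stem cells. The sums of 5 red blood cell markers, 2 of them lower, ran from 6.94 to 7.05 against 6.51 to 6.89, and those of 10 embryonic stem cell markers, 7 of them lower and 1 higher, from 16.41 to 16.42 against 16.02 to 16.22. The poly-A control probe sets averaged 7.13 to 7.27 under the control siRNA and 7.83 to 8.25 under the Ncl siRNAs, and the 3' minus 5' signal of the beta-actin control probe sets was 0.45 to 0.51 against 0.23 to 0.29. The part of these controls and markers in the differences below was not tested, and in such bulk RNA fewer cells of a type and less RNA per cell cannot be told apart.

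Both glucose transporters among the 31 genes rose, while most genes of glycolysis, lactate handling and the pentose phosphate pathway that changed fell. With siRNA #1, 7 of the 31 genes rose and 15 fell, where 20.2% and 17.3% of all genes tested did so and 37.4% changed either way. With siRNA #2, 7 rose and 16 fell, where the shares of all genes were 17.7% and 21.7%, and 39.5% either way. Both comparisons use the same control arrays. With each of the siRNAs, 5 genes rose and 15 fell, where 15.5% and 14.3% of all genes did so, and 0 were called in opposite directions. The median difference over the 31 genes was -0.08 with siRNA #1 and -0.25 with siRNA #2, and over all genes -0.05 and -0.04. In 16 of the 31 genes all 4 Ncl siRNA arrays read below both control arrays, and in 8 they read above, against 26.7% and 23.4% of all genes.

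**Figure D1:**
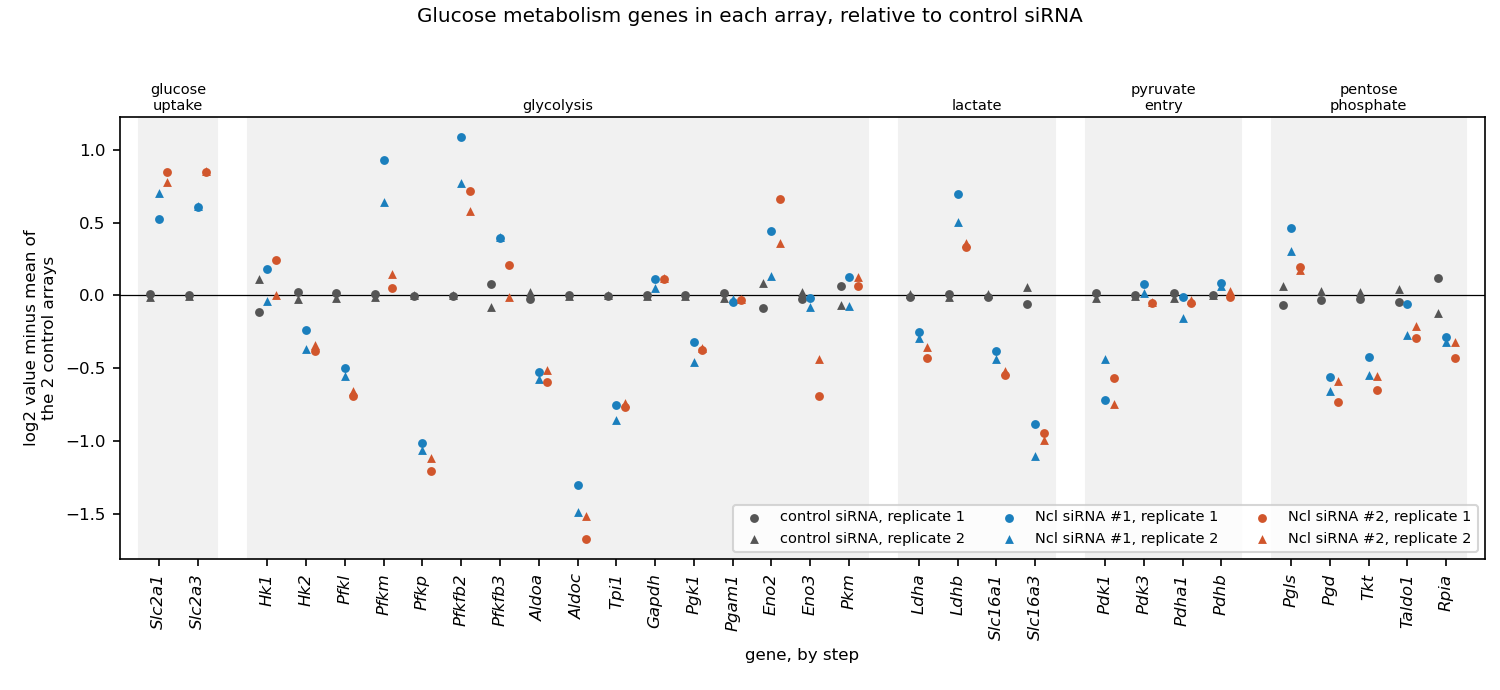
Log2 value of each gene in each array minus the mean of the 2 control arrays (vertical axis), by step (horizontal axis). Circles are replicate 1 and triangles replicate 2 of the control siRNA (grey), Ncl siRNA #1 (blue) and Ncl siRNA #2 (orange). The transporters Slc2a1 and Slc2a3 lie above 0 in all 4 Ncl siRNA arrays, and Aldoc lies lowest, at -1.39 with siRNA #1 and -1.59 with siRNA #2 on average.

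Because these genes are known to share regulators that read short DNA motifs, the 250 bases before the annotated start were searched in RefSeq promoter entries (GRCm38.p6), on both strands. An entry was found for 30 of the 31 genes, and not for Slc2a3. The motifs were ACGTG and GCGTG, which form the core of sites for hypoxia-inducible factor (HIF), CACGTG, the E-box read by Myc and USF proteins, and GGGCGG, the GC box read by Sp1. Each CACGTG also counts as 2 matches to ACGTG, 1 on each strand. Shown here are 6 promoters of genes from glucose uptake, glycolysis and lactate handling. Of these genes Slc2a1 and Ldhb rose, and Pfkp, Pgk1, Ldha and Slc16a3 fell. None is from pyruvate entry or the pentose phosphate pathway. Each of the 6 holds ACGTG or GCGTG, which not every gene does. Tpi1, which fell with each siRNA, and Eno2 hold neither. Capitals mark ACGTG and GCGTG on either strand, and Ldha is shown at the entry that comes first in the table of its 2.
Slc2a1 (chr4:119108495-119108744, plus strand): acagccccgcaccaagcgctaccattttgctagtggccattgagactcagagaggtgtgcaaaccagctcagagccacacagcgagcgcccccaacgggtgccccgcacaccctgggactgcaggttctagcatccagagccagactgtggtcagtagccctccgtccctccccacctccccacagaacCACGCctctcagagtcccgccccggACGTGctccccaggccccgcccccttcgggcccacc
Pfkp (chr13:6648772-6649021, minus strand): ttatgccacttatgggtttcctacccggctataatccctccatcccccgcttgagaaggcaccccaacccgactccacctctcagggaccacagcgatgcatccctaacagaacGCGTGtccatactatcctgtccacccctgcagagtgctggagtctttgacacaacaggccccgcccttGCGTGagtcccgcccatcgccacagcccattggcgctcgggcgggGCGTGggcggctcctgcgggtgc
Pgk1 (chrX:106186850-106187099, plus strand): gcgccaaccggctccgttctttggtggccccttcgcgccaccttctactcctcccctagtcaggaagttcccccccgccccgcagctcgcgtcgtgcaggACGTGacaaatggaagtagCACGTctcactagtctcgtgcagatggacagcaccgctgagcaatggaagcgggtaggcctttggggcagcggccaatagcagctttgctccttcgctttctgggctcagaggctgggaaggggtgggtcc
Ldha (chr7:46845554-46845803, plus strand): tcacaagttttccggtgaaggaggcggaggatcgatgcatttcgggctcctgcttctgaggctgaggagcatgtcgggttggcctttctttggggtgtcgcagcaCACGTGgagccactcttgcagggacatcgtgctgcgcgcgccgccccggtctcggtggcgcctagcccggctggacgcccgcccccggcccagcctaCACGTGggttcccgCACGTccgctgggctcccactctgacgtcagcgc
Ldhb (chr6:142507958-142508207, minus strand): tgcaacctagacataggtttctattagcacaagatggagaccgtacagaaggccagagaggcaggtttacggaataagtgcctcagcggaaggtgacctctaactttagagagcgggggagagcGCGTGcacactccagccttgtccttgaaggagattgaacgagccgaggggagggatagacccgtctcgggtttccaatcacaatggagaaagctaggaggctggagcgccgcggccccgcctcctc
Slc16a3 (chr11:120948817-120949066, plus strand): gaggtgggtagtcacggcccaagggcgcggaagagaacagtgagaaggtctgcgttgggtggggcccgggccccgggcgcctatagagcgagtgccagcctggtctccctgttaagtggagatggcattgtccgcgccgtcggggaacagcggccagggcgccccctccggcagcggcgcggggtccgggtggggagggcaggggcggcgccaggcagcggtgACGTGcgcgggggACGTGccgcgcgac
The HIF core was found in promoters of genes that moved both ways. There were 2 matches before Slc2a1 and 1 before Ldhb, and 3 before Pfkp, 2 before Pgk1, 5 before Ldha and 2 before Slc16a3. The 5 of Ldha count both strands of each of its 2 CACGTG, so that fewer separate sites are marked. At least 1 ACGTG stood before 14 of the 30 genes (46.7%) and before 22.5% of the 14453 tested genes with an entry, and GCGTG before 23 (76.7%) and 42.5%. For CACGTG the numbers were 5 (16.7%) and 8.73%, for GGGCGG 21 (70.0%) and 53.4%, and for TATAAA, the TATA box, 1 (3.33%) and 10.5%. Among the 15 genes that fell with each siRNA, 6 had ACGTG, 10 GCGTG and 14 GGGCGG. Of the 4 with an entry that rose with each, 2 had ACGTG, 4 GCGTG and 3 GGGCGG, and of the 11 others 6, 9 and 4. The promoters of the 30 genes had a median GC content of 60.4%, against 57.6% for the tested genes. A gene with several entries was counted if any of them matched. The 30 genes had 44 entries and the 14453 tested genes 18110, so that more entries per gene were searched for the 30. The part of this in the shares was not tested.

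Transcripts of both glucose transporters rose. Slc2a1, the widely expressed transporter GLUT1, read 12.76 and 12.73 under control siRNA, 13.27 and 13.45 under siRNA #1, and 13.60 and 13.53 under siRNA #2. All 4 Ncl siRNA arrays lay above both controls, and the siRNA #2 arrays above the siRNA #1 arrays. The gene rose by 0.62 with siRNA #1 (SE 0.05, adjusted p = 3.29e-09), to 153% of control, and by 0.81 with siRNA #2 (SE 0.05, adjusted p = 2.9e-11), to 176%. Slc2a3, the high-affinity transporter GLUT3, read 13.28 in both control arrays, 13.89 and 13.90 with siRNA #1, and 14.13 in both siRNA #2 arrays. The arrays of a group almost coincided for this gene. It rose by 0.61 with siRNA #1 (SE 0.04, adjusted p = 4.53e-11) and by 0.85 with siRNA #2 (SE 0.04, adjusted p = 1.44e-13), to 153% and 180.3% of control.

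At the entry to glycolysis the hexokinases, which trap glucose as its phosphate, were unlike. Hk2, the inducible form, read 11.97 and 11.92 under control siRNA, 11.71 and 11.58 under siRNA #1, and 11.57 and 11.61 under siRNA #2. All Ncl siRNA arrays were below the controls, and Hk2 fell by 0.30 (SE 0.06, adjusted p = 1.86e-04) and fell by 0.36 (SE 0.06, adjusted p = 1.94e-05). Hk1, the constitutive form, did not pass with either siRNA, at 0.07 (95% confidence interval -0.19 to 0.32) and 0.13 (-0.13 to 0.38), and its groups overlapped. Neither interval reaches the fall of Hk2.

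Phosphofructokinase, the committing enzyme of glycolysis, is encoded by 3 genes, and these went different ways. Pfkp, the platelet type, read 10.42 and 10.43 under control siRNA, 9.41 and 9.36 under siRNA #1, and 9.22 and 9.31 under siRNA #2. It fell by 1.04 (SE 0.07, adjusted p = 2.55e-10) and fell by 1.16 (SE 0.07, adjusted p = 3.29e-11), to 48.8% and 44.7% of control. Pfkl, the liver type, read 9.44 and 9.41, then 8.92 and 8.87, then 8.73 and 8.76, in the same order of groups. It fell by 0.53 (SE 0.08, adjusted p = 2.85e-05) and fell by 0.68 (SE 0.08, adjusted p = 8.99e-07). For both genes every Ncl siRNA array was below every control array. Pfkm, the muscle type, read 8.14 and 8.12 under control siRNA, 9.07 and 8.78 under siRNA #1, and 8.19 and 8.28 under siRNA #2. It rose by 0.79 with siRNA #1 (SE 0.11, adjusted p = 3.58e-06), and did not pass with siRNA #2, at 0.10 (-0.12 to 0.33). In all 3 phosphofructokinase genes the siRNA #2 arrays read below the siRNA #1 arrays, and Pfkm alone of the 3 passed the direct test given further on (adjusted p = 2.88e-04, against 0.298 for Pfkl and 0.319 for Pfkp). The heart and skeletal muscle markers had lower sums in the Ncl siRNA arrays. In the mean of both siRNAs, 8 of 10 heart muscle markers were lower, and of 10 skeletal muscle markers 3 were lower and 3 higher. Among all genes 21.7% were lower and 20.3% higher. The part of these markers in the difference of Pfkm was not tested.

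The bifunctional enzymes that set the level of fructose-2,6-bisphosphate, the activator of phosphofructokinase, were higher or not called. Pfkfb2 read 6.29 and 6.30 under control siRNA, 7.38 and 7.06 under siRNA #1, and 7.01 and 6.87 under siRNA #2. It rose by 0.93 (SE 0.15, adjusted p = 3.32e-05) and by 0.65 (SE 0.15, adjusted p = 0.00131). This holds for the brightest of its 4 probe sets, and the mean of the 4 did not pass with either siRNA, at 0.35 (adjusted p = 0.0727) and 0.25 (adjusted p = 0.182). Pfkfb3, whose kinase activity prevails, read 6.70 and 6.55, then 7.02 and 7.03, then 6.84 and 6.61. It rose by 0.40 with siRNA #1 (SE 0.15, adjusted p = 0.0377), a call that was lost whichever single array was left out, with adjusted p from 0.0523 to 0.209, and with quantile normalization (0.26, adjusted p = 0.14). The mean of its 2 probe sets stood at 0.04 with siRNA #1 (adjusted p = 0.793), the dimmer one reading -0.31. With siRNA #2 it stood at 0.10 (adjusted p = 0.668).

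In the middle of the pathway, where the 6-carbon sugar is split, all 3 genes read fell with each siRNA, as did 14.3% of all genes. Aldoc, the brain type of aldolase, read 8.54 and 8.53 under control siRNA, 7.24 and 7.05 under siRNA #1, and 6.87 and 7.03 under siRNA #2. It fell by 1.39 (SE 0.13, adjusted p = 8.74e-09) and fell by 1.59 (SE 0.13, adjusted p = 8.43e-10), to 38.1% and 33.2% of control, the lowest percentages among the 31 genes. Beside this brain-type gene, 3 of the 8 neuronal markers were higher and 3 lower in the mean of both siRNAs. The shares of all genes were 20.3% and 21.7%, and the part of these markers in the result was not tested. Aldoa, the muscle and general type, read 13.35 and 13.40, then 12.85 and 12.80, then 12.78 and 12.86. It fell by 0.55 (SE 0.05, adjusted p = 3.37e-09) and fell by 0.56 (SE 0.05, adjusted p = 2.21e-09). All Aldoa probe sets have names ending in _x_at, and the dimmest did not pass, at -0.17 and 0.01 (limma adjusted p = 0.079 and 0.921). Tpi1, triosephosphate isomerase, which interconverts the 2 products of aldolase, read 12.33 and 12.34, then 11.59 and 11.48, then 11.57 and 11.60. It fell by 0.80 (SE 0.05, adjusted p = 7.18e-11) and fell by 0.75 (SE 0.05, adjusted p = 1.75e-10), to 57.3% and 59.4% of control. On the brightest probe sets of Aldoa, Aldoc and Tpi1 the groups treated with Ncl siRNAs lay wholly below the controls.

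Among the later enzymes, which carry glyceraldehyde-3-phosphate on to pyruvate, Pgk1 fell, Pgam1 and Pkm did not pass, and Gapdh was slightly higher. Gapdh, the dehydrogenase often used as a reference transcript, was read from the control probe sets that the array carries for it, at 14.42 and 14.41 under control siRNA, 14.53 and 14.47 under siRNA #1, and 14.54 in both siRNA #2 arrays. Its arrays did not overlap, but the differences were small, at 0.08 with siRNA #1 (adjusted p = 0.0861) and 0.12 under siRNA #2, which passed (SE 0.04, adjusted p = 0.0159). That call was lost with arrays centred on their medians (adjusted p = 0.217), with variances without a trend (0.318), and without either control array or either siRNA #2 array (0.0755 to 0.115). The signals lie near the top of the measured range, which ends at 15.34. Pgk1, phosphoglycerate kinase, read 13.23 and 13.22, then 12.91 and 12.77, then 12.85 and 12.86, and fell by 0.39 (SE 0.05, adjusted p = 1.21e-06) and fell by 0.37 (SE 0.05, adjusted p = 1.83e-06). Pgam1, phosphoglycerate mutase, read between 13.00 and 13.06 in all 6 arrays and did not pass, at -0.03 (-0.13 to 0.06) and -0.03 (-0.12 to 0.06). Pkm, pyruvate kinase, read between 12.50 and 12.70 and did not pass either, at 0.03 (-0.10 to 0.15) and 0.10 (-0.03 to 0.22). For Pgam1 and Pkm these intervals do not reach the size of the fall of Pgk1.

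Of the enolases, which make phosphoenolpyruvate, the muscle and the neuronal forms were read. Eno3, the muscle form, read 8.45 and 8.50 under control siRNA, 8.45 and 8.39 under siRNA #1, and 7.78 and 8.04 under siRNA #2. It fell by 0.56 with siRNA #2 (SE 0.11, adjusted p = 1.98e-04), and the siRNA #1 arrays overlapped the controls, at -0.05 (-0.27 to 0.18). Beside it, the heart and skeletal muscle sums were lower in the arrays of both siRNAs. Between the siRNAs, 1 of 10 heart and 1 of 10 skeletal muscle markers were lower with siRNA #2, against 6.18% of all genes. In each list the other 9 did not pass, and the median was 0.02. The skeletal muscle marker that was lower was Actn3, at -0.43 (limma adjusted p = 0.0265), and that list ran up to 0.33. The part of these markers in the result was not tested. Eno2, the neuronal form, was dim, at 4.48 and 4.66 under control siRNA, 5.01 and 4.70 under siRNA #1, and 5.23 and 4.93 under siRNA #2. It rose by 0.51 with siRNA #2 (SE 0.18, adjusted p = 0.0271), and did not pass with siRNA #1, at 0.29 (-0.09 to 0.66). The Eno2 call was lost without replicate 1 of the control siRNA (adjusted p = 0.15) or replicate 1 of siRNA #2 (adjusted p = 0.311).

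All 4 genes of lactate production and transport changed with each siRNA, 3 falling and 1 rising. Among all genes 14.3% fell and 15.5% rose with each. Ldha, the subunit of lactate dehydrogenase that favours lactate, read 13.30 and 13.32 under control siRNA, 13.06 and 13.02 under siRNA #1, and 12.88 and 12.96 under siRNA #2. It fell by 0.27 (SE 0.05, adjusted p = 4.53e-05) and fell by 0.39 (SE 0.05, adjusted p = 2.88e-07). Ldhb, the subunit that favours pyruvate, moved the other way, from 10.46 and 10.44 to 11.15 and 10.95 with siRNA #1 and 10.78 and 10.81 with siRNA #2. It rose by 0.60 (SE 0.07, adjusted p = 2.58e-07) and by 0.35 (SE 0.07, adjusted p = 2.31e-04). In both genes the Ncl siRNA arrays lay wholly on the far side of the controls, on the brightest probe set. Of the monocarboxylate transporters, Slc16a1 (MCT1), which carries lactate and pyruvate either way, read 11.98 and 12.00, then 11.61 and 11.55, then 11.44 and 11.47. It fell by 0.41 (SE 0.05, adjusted p = 1.83e-06) and fell by 0.53 (SE 0.05, adjusted p = 3.13e-08). Slc16a3 (MCT4), the exporter of highly glycolytic cells, was dim and read 5.89 and 6.01, then 5.07 and 4.85, then 5.001 and 4.95. It fell by 0.99 (SE 0.17, adjusted p = 7.38e-05) and fell by 0.97 (SE 0.17, adjusted p = 7.76e-05), to 50.3% and 51.0% of control, and its reading was above the lower quartile of all probe sets on every array.

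At the entry of pyruvate into the mitochondrion, Pdk1 fell, and the other 3 genes did not pass on their brightest probe sets. Pdk1, a kinase that switches the pyruvate dehydrogenase complex off, read 11.36 and 11.33 under control siRNA, 10.63 and 10.91 under siRNA #1, and 10.78 and 10.60 under siRNA #2. It fell by 0.58 (SE 0.08, adjusted p = 3.53e-06) and fell by 0.66 (SE 0.08, adjusted p = 4.94e-07), to 67.0% and 63.5% of control, with no overlap between Ncl siRNA and control arrays. The related kinase Pdk3 read between 9.18 and 9.31 and did not pass, at 0.05 (-0.12 to 0.21) and -0.05 (-0.22 to 0.12). Pdha1 and Pdhb, which encode the E1 subunits of the complex, read between 11.49 and 11.66 and between 11.66 and 11.76. Pdha1 did not pass, at -0.08 (-0.20 to 0.04) and -0.04 (-0.16 to 0.08), but its dimmer probe set fell by 0.26 (adjusted p = 0.0175) and fell by 0.25 (adjusted p = 0.0209), in the limma fit over all probe sets. The mean of both Pdha1 probe sets passed in the mean of both siRNAs, at -0.16 (adjusted p = 0.0415). Pdhb did not pass, at 0.08 (-0.03 to 0.18) and 0.01 (-0.10 to 0.12).

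In the pentose phosphate pathway 4 of the 5 genes read fell with each siRNA and 1 rose. Of all genes tested, 14.3% fell and 15.5% rose with each siRNA. Pgd, which makes NADPH and ribulose-5-phosphate, read 12.04 and 12.10 under control siRNA, 11.51 and 11.42 under siRNA #1, and 11.34 and 11.49 under siRNA #2. It fell by 0.61 (SE 0.06, adjusted p = 3.15e-08) and fell by 0.66 (SE 0.06, adjusted p = 7.38e-09), to 65.6% and 63.4% of control. This rests on probe sets whose names end in _x_at, which can share probes with other genes, and the 1 without that ending gave -0.05 and -0.07 (adjusted p = 0.684 and 0.526). Pgls, the lactonase that precedes it, moved upwards, from 10.17 and 10.30 to 10.69 and 10.54 with siRNA #1 and 10.43 and 10.41 with siRNA #2. It rose by 0.38 (SE 0.07, adjusted p = 1.5e-04) and by 0.19 (SE 0.07, adjusted p = 0.0424), and the smaller rise was lost with the replicate number as a block (adjusted p = 0.0524), with arrays centred on their medians (0.186), without replicate 1 of the control siRNA (0.344), and without either siRNA #2 array (0.198 and 0.146).

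The enzymes of the reversible branch, which link ribose to glycolysis, all fell with each siRNA, as did 14.3% of all genes. The calls of Taldo1 and Rpia depended on the processing. Tkt, transketolase, read 13.70 and 13.75 under control siRNA, 13.30 and 13.18 under siRNA #1, and 13.08 and 13.17 under siRNA #2, and fell by 0.49 (SE 0.05, adjusted p = 4.88e-08) and fell by 0.60 (SE 0.05, adjusted p = 1.45e-09). The next brightest Tkt probe set also fell, at -0.26 and -0.44 (limma adjusted p = 0.00462 and 3.99e-05). The dimmest did not pass, at -0.12 and 0.07 (limma adjusted p = 0.67 and 0.826). Taldo1, transaldolase, read 11.99 and 12.09, then 11.98 and 11.77, then 11.75 and 11.83. Its arrays lay close together, and it fell by 0.17 (SE 0.06, adjusted p = 0.0434) and fell by 0.25 (SE 0.06, adjusted p = 0.00264). The call with siRNA #1 was lost with quantile normalization (limma adjusted p = 0.0582) and with the mean of all probe sets of each gene (0.0899). With variances without a trend it was lost with both siRNAs (0.27 and 0.113). Rpia, ribose-5-phosphate isomerase, read 8.89 and 8.66, then 8.49 and 8.46, then 8.35 and 8.46, and fell by 0.30 (SE 0.10, adjusted p = 0.0241) and fell by 0.37 (SE 0.10, adjusted p = 0.00512). With variances without a trend its call with siRNA #1 was lost (limma adjusted p = 0.079). Rpia did not pass with either siRNA without replicate 1 of the control siRNA (adjusted p = 0.312 and 0.133), with siRNA #1 without its replicate 2 (0.0556), or with siRNA #2 without its replicate 1 (0.0971). Taldo1 did not pass with siRNA #1 without replicate 2 of the control siRNA (adjusted p = 0.288) or replicate 2 of siRNA #1 (adjusted p = 0.432).

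The siRNAs were then compared directly, since a call with 1 of them alone does not show that they differ. Of the 31 genes 5 differed, against 8.48% of all genes, 2 being higher with siRNA #2 (2.3% of all genes) and 3 lower (6.18%). With quantile normalization the genes that differed overall numbered 567 higher and 596 lower, in place of 418 and 1125. Both glucose transporters were higher with siRNA #2, Slc2a1 by 0.20 (SE 0.05, adjusted p = 0.0202) and Slc2a3 by 0.24 (SE 0.04, adjusted p = 4.96e-04). The muscle-type genes Pfkm (-0.69, SE 0.11, adjusted p = 2.88e-04) and Eno3 (-0.51, SE 0.11, adjusted p = 0.0045) were lower with siRNA #2, as was Ldhb (-0.25, SE 0.07, adjusted p = 0.0225). The widest intervals among genes that did not pass were those of Eno2 (-0.15 to 0.60) and Slc16a3 (-0.34 to 0.38), and the narrowest those of Gapdh (-0.05 to 0.11) and Pgam1 (-0.09 to 0.10). Of the 5 differences 0 passed with variances without a trend (limma adjusted p from 0.0606 to 0.305), and that of Slc2a3 was lost without probe sets ending in _x_at or _s_at (0.43, adjusted p = 0.0753). Slc2a1 did not pass without replicate 1 of siRNA #1 (0.253) or of siRNA #2 (0.233), Ldhb without replicate 1 of siRNA #1 (0.21) or either siRNA #2 array (0.218 and 0.128), and Eno3 without replicate 1 of siRNA #2 (0.2). In all, 11 genes differed without replicate 2 of siRNA #1, 3 without its replicate 1, and 2 without replicate 1 of siRNA #2.

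**Figure D2:**
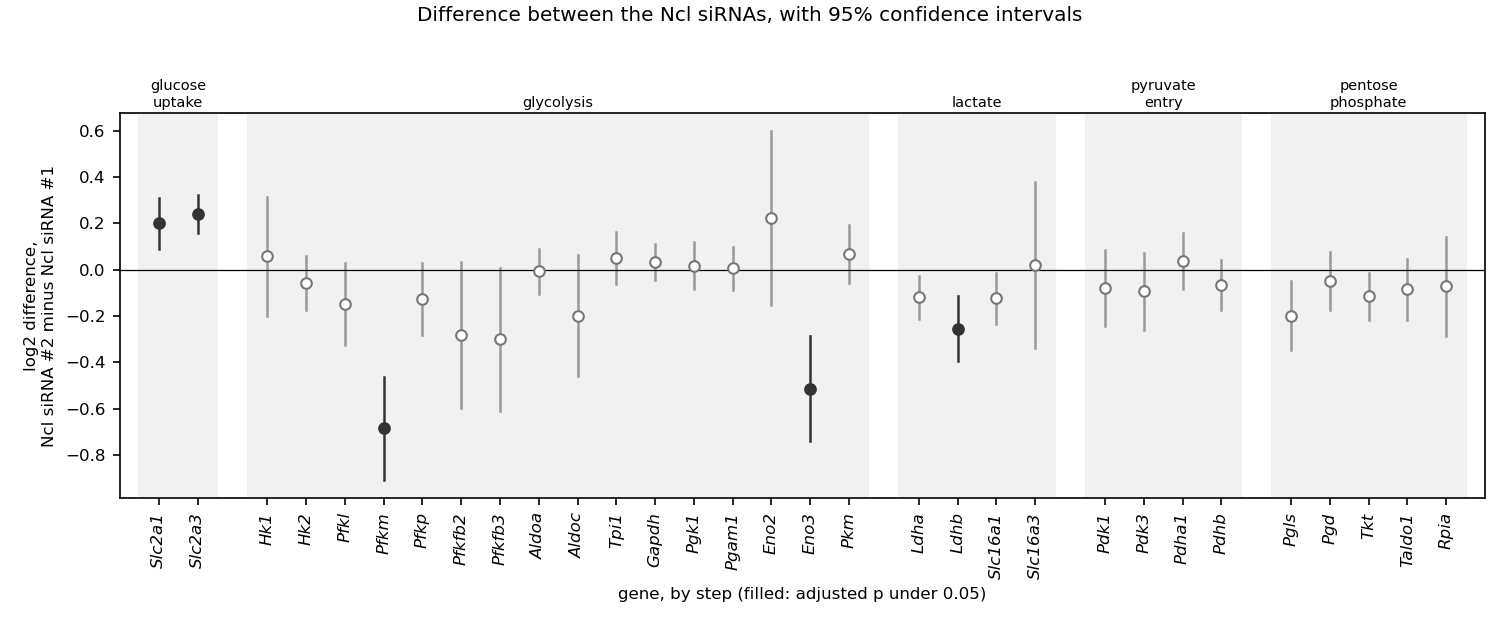
Log2 difference between Ncl siRNA #2 and Ncl siRNA #1 for each gene (vertical axis, points) with its 95% confidence interval from limma (lines), by step. Filled points have an adjusted p under 0.05: Slc2a1 and Slc2a3 lie above 0, and Pfkm, Eno3 and Ldhb below.

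Genes with several probe sets allowed each change to be read more than once on the same arrays. There were 19 such genes. In the limma fit over all 45101 probe sets, none of these genes had probe sets called in both directions in the mean of both siRNAs. In 8 of them every probe set was called one way, in 8 some were called and the rest did not pass, and in 3 none was called. The 3 probe sets of Slc2a1 gave 0.71, 0.89 and 1.56, from the brightest to the dimmest. The 4 of Slc2a3 gave 0.73, 0.70, 1.98 and 1.82 in that order. For Tpi1 the 3 probe sets gave -0.78, -0.74 and -1.09, and for Pgk1 -0.38, -0.60 and -0.57. All 4 of Ldhb rose, by 0.25 to 0.47, and all 3 of Gapdh rose, by 0.10 to 0.13. With siRNA #2 alone, the Ldhb probe sets of rank 2 and 4 in brightness did not pass, at 0.16 and 0.19 (limma adjusted p = 0.149 and 0.0795). For Pfkp 2 fell, by 1.10 and 1.45 on the log2 scale, and the third read -0.06. Both of Aldoc fell, the dimmer by 0.36, and that one lay under the lower quartile of all probe sets on all 6 arrays. Probe sets of a gene can cover different transcripts, and saturation or cross-hybridisation was not tested.

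**Figure D3:**
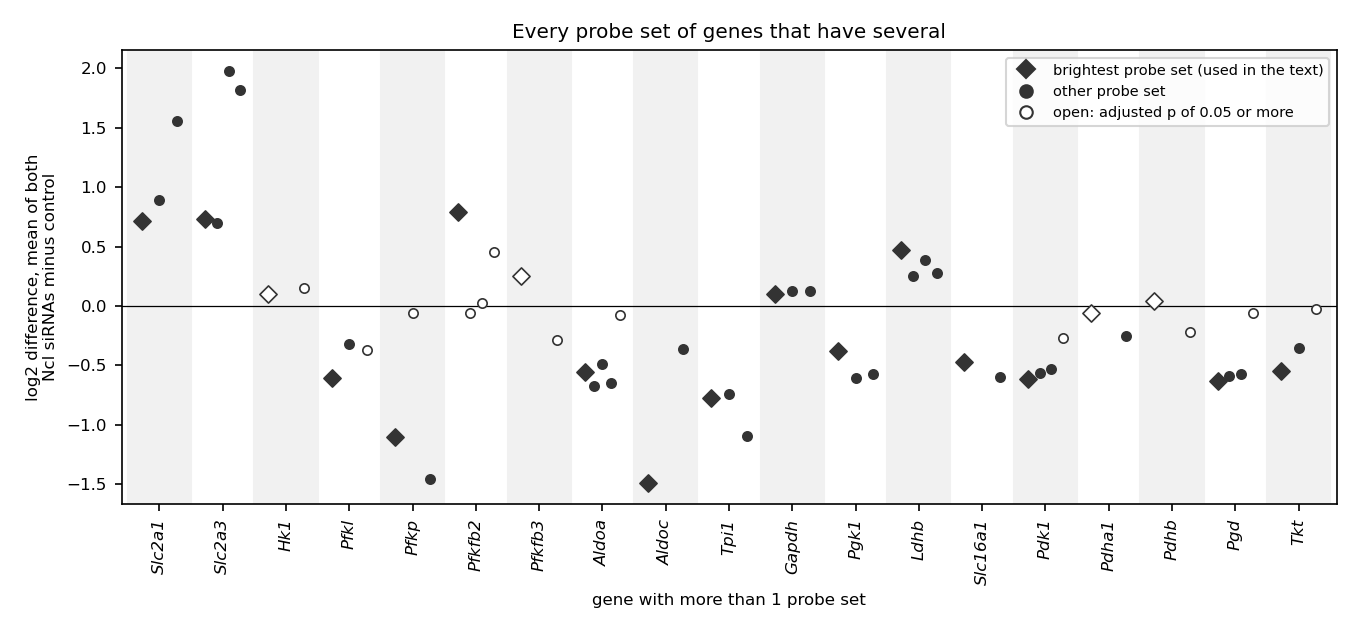
Log2 difference of the mean of both Ncl siRNAs minus control (vertical axis) for every probe set of the 19 genes with more than 1. Diamonds are the brightest probe set and circles the others. Open symbols did not pass at an adjusted p under 0.05 in the limma fit over all 45101 probe sets. The probe sets of Slc2a1 and Slc2a3 all lie above 0.70, and no gene has filled symbols on both sides of 0.

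Other genes of glucose metabolism, from lists written for this work, were read in the mean of both siRNAs, in which 16 of the 31 genes above fell and 8 rose (21.7% and 20.3% of all genes, and 42% either way). In the list of other enzymes of glycolysis and gluconeogenesis, there were 5 higher, 4 lower and 12 not passing among 21 read, with a median of 0.00 against -0.05 over all genes. Fructose-1,6-bisphosphatase, which runs the phosphofructokinase step backwards, rose in both its forms. Fbp2 read 6.84 and 6.98 under control siRNA, 9.15 and 8.94 under siRNA #1, and 9.63 and 9.77 under siRNA #2, a rise of 2.46 (SE 0.09, adjusted p = 1.89e-15), and Fbp1 rose by 1.74 (SE 0.12, adjusted p = 1.22e-10). Pfkfb4, another kinase and phosphatase for fructose-2,6-bisphosphate, rose by 1.53 (SE 0.11), and Tigar, a phosphatase for the same sugar and a known p53 target, fell by 1.05 (SE 0.10). In the list of other sugar transport genes, of which 12 were read, there were 3 higher, 1 lower and 8 not passing. Among them Txnip, a glucose-induced protein that removes transporters from the cell surface, rose by 1.73 (SE 0.05), from 9.71 and 9.67 to 11.60 and 11.59 with siRNA #1 and 11.23 and 11.29 with siRNA #2.

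The remaining lists had members on both sides. For the counts that follow, 20.3% of all genes rose and 21.7% fell in the mean of both siRNAs. Of 9 other lactate genes 2 rose and 2 fell: Bsg, the chaperone of MCT1 and MCT4, rose by 0.34 (SE 0.05), Slc16a6 by 0.55 (SE 0.11), Emb, another partner of these transporters, fell by 0.52 (SE 0.06), and Ldhc, the testis lactate dehydrogenase, fell by 1.18 (SE 0.13). Of 13 other pentose phosphate and ribose genes 6 rose and 4 fell. Prps1 and Prps2, which turn ribose-5-phosphate into the precursor of nucleotides, rose by 0.50 (SE 0.05) and 0.77 (SE 0.05), Rbks, ribokinase, rose by 0.98 (SE 0.14), and H6pd, the enzyme that starts the pathway in the endoplasmic reticulum, fell by 0.53 (SE 0.14). Of 11 other pyruvate genes 3 rose and 4 fell. The phosphatases that switch pyruvate dehydrogenase on parted, Pdp1 rising by 0.62 (SE 0.11) and Pdp2 falling, at -0.73 (SE 0.14), while Dld, the E3 subunit, rose by 0.44 (SE 0.06) and Pcx, pyruvate carboxylase, by 0.36 (SE 0.09). Of 22 targets of HIF outside glycolysis 8 rose and 9 fell, with a median of -0.17: Ddit4 rose by 2.48 (SE 0.05), Bhlhe40 by 2.30 (SE 0.07) and Car12 by 1.11 (SE 0.16), and Bnip3 fell by 1.41 (SE 0.06). Of 14 regulators of glycolytic genes 2 rose and 4 fell. Hif1a, the HIF subunit that is controlled mainly at the protein level, rose by 0.23 (SE 0.05, adjusted p = 0.00179), a call lost without replicate 2 of the control siRNA (adjusted p = 0.0787). The mean of all its probe sets had the opposite sign and did not pass, at -0.11 (adjusted p = 0.263). Epas1, which encodes HIF-2 alpha, fell by 0.76 (SE 0.07), and Mlxip, a glucose-sensing factor, fell by 0.43 (SE 0.10). Among the genes named from these lists the highest limma adjusted p was 0.0028, for H6pd.

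**Figure D4:**
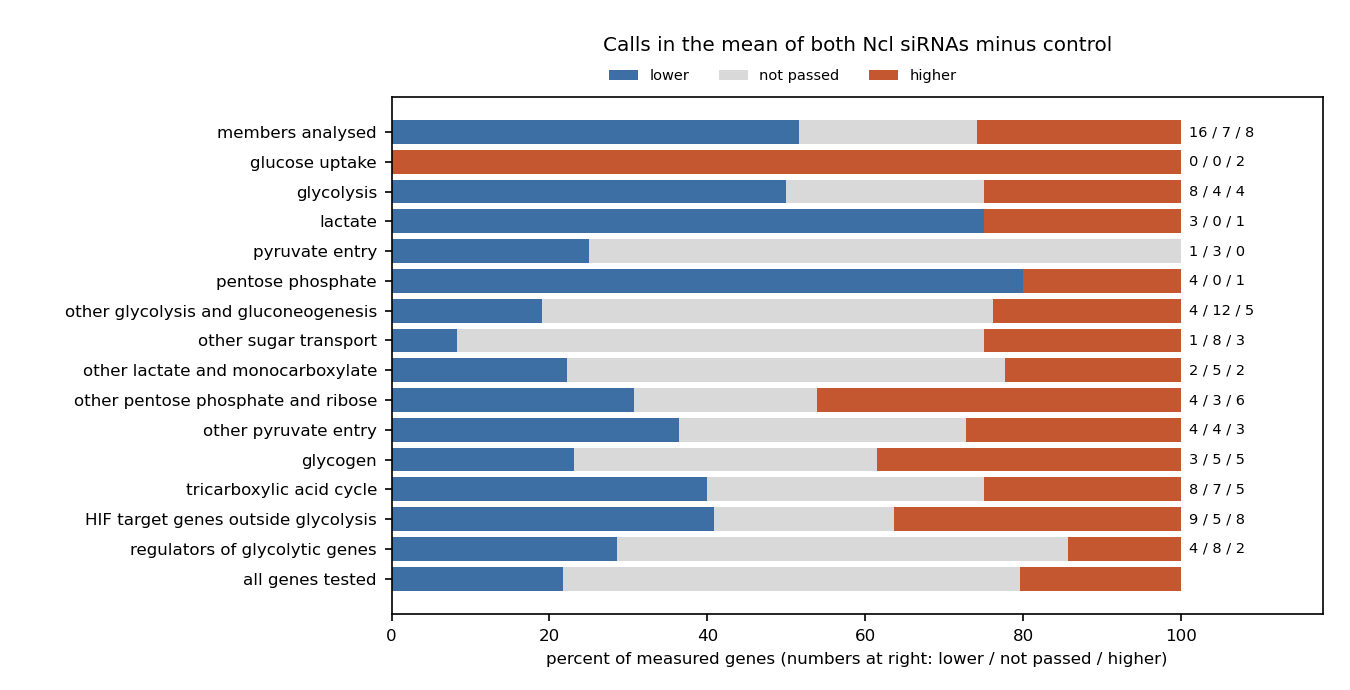
Percent of the measured genes of each list that were lower (blue), not passed (grey) or higher (orange) in the mean of both Ncl siRNAs minus control, with the numbers at the right and all 18194 genes tested in the bottom bar. Of the 31 genes described here 16 were lower and 8 higher, and both glucose transporters were higher.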

How the data were processed

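Total RNA (RNeasy, Qiagen) was labelled with biotin by Affymetrix IVT, per the labels' protocols. The authors deposited log2 values for 45101 probe sets on 6 arrays, already normalized, with array medians from 5.73 to 5.79. How they were normalized and background-corrected is not given in the sources used here. Of the probe sets 34958 carry 1 gene symbol in GEO's platform annotation, 932 several and 9211 none. For each of 18194 genes the brightest probe set with a single symbol was kept, and group means over all 6 arrays were modelled with limma 3.58.1 (R 4.3.3) with a variance trend, on 3 residual and 17.5 prior degrees of freedom. The threshold was an adjusted p of 0.05 (Benjamini-Hochberg). The number of arrays limits the precision.

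The genes and lists were chosen with earlier results of these data known. All 34 symbols were named, of which 31 were read, with up to 4 genes of each other list, namely those with the largest mean change among genes called the same way with each siRNA, the 2 largest of each marker list, and Ncl, Hif1a and Txnip. Pou5f1 was added as the defining stem cell marker. Replicate deviations of different groups correlated between -0.02 and 0.01. This shows no shared deviation by replicate number, but cannot tell whether arrays of the same number were handled together. The main fit did not pair arrays. The procedure was tested on simulated data. Alternatives were scaling, centring, probe set choice, a filter on dim genes, variance models, arrays fitted, a replicate block, thresholds and leaving out each array.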

Additional observations from a re-analysis of the deposited data

Results flagged for a closer look

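The effects of the siRNAs on 5 genes differed by a direct test (siRNA #2 minus siRNA #1, limma): Slc2a1 at 0.20, Slc2a3 at 0.24, Pfkm at -0.69, Eno3 at -0.51 and Ldhb at -0.25. For Slc2a1, Slc2a3 and Ldhb both siRNAs gave the same direction against control, Pfkm was called with siRNA #1 alone, and Eno3 with siRNA #2 alone. The poly-A control probe sets, which are no genes of the cells, averaged 0.79 higher in the Ncl siRNA arrays than in the control arrays, and their part in the differences above was not tested.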

How the results depend on the processing

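With the threshold kept and the data or model varied, 1809 values of the 31 genes were recomputed, of which 1726 stayed on their side of the threshold, 69 lost a call, 14 gained one and 0 turned a called direction. Of the 20 genes called with each siRNA, 15 kept both calls under those alternatives that could read them, the exceptions being Pfkfb2, Pgls, Pgd, Taldo1 and Rpia. Stricter thresholds ended more calls: a change of at least 1.5-fold as well left 10 genes with siRNA #1 (5 lower), 11 with siRNA #2 (3 higher, 8 lower), 10 in the mean of both (3 higher, 7 lower), and 1 between the siRNAs (0 higher, 1 lower). At an adjusted p under 0.01, 4 rose with siRNA #2 and 3 differed between the siRNAs (1 higher). Between the siRNAs, 0 genes differed, 0 higher and 0 lower, with variances without a trend, and 1 was higher with probe sets ending in _x_at or _s_at left out, which left 30 genes. With the replicate number as a block 6 genes rose with siRNA #2 and 16 fell, and the other counts were those of the fit without it.

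With each array left out in turn, siRNA #1 gave 20 to 22 called genes (6 to 7 higher, 13 to 16 lower), siRNA #2 19 to 23 (4 to 7 higher, 15 to 16 lower), the mean of both 20 to 25 (6 to 9 higher, 14 to 16 lower), and the siRNAs differed in 2 to 11 (1 to 2 higher, 1 to 9 lower). The 4 that rose with siRNA #2 were obtained without replicate 1 of the control siRNA and without replicate 1 of siRNA #2. For Hif1a the mean of all its probe sets turned the sign, to -0.11 (limma adjusted p = 0.263), and the cause was not tested. The median of all genes moved by less than 0.1 between scalings, at -0.05, -0.04 and -0.08 in the mean of both as deposited, quantile normalized and centred. The fit of only the arrays compared gave no value for the mean of both. Aldoa had no probe set without the _x_at ending, and small differences such as those of Gapdh and Taldo1 are near what 2 arrays per group can resolve.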

Other observations

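Genes of glycogen metabolism and the tricarboxylic acid cycle were also read in the mean of both Ncl siRNAs minus control. Among 13 glycogen genes there were 5 higher, 3 lower and 5 not passing, with a median of 0.10, where 20.3% of all genes were higher, 21.7% lower and 42% either. Gyg, glycogenin, the protein on which glycogen is started, rose by 1.18 (SE 0.10), while Gys1, glycogen synthase, fell by 0.66 (SE 0.10). The phosphorylase kinase subunits Phka2 and Phkg2 rose by 0.47 (SE 0.10) and 0.45 (SE 0.12), the latter not passing without replicate 1 of the control siRNA (limma adjusted p = 0.15).

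Of 20 genes of the tricarboxylic acid cycle 8 fell, 5 rose and 7 did not pass, against the same shares of all genes, with a median of -0.11. Suclg2, the GTP-forming subunit of succinyl-CoA ligase, fell by 0.75 (SE 0.06), Mdh1, the cytosolic malate dehydrogenase, fell by 0.43 (SE 0.06), Sdhb, the iron-sulfur subunit of succinate dehydrogenase, fell by 0.36 (SE 0.05), and Cs, citrate synthase, fell by 0.32 (SE 0.04).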
